A study of Mus musculus with 15 samples.

Results

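The 6 genes described here encode proteins that mark mitochondria for removal by autophagy: Bnip3, Bnip3l, Fundc1, Fkbp8, Phb2 and Pink1. They were chosen by name, for their known function, with earlier results of these data known. The count tables hold 24982 genes, and all 6 were among the 15696 genes that passed the filter on low counts. The libraries hold polyA RNA of mouse embryonic stem cells, labelled E14TG2 in all 15, that were being turned into epiblast-like cells, which resemble the epiblast of the early embryo after implantation. There were 5 groups of 3 libraries each. Undifferentiated stem cells at day 0 (ESC) and cells at day 2 and day 4 (d2-Control and d4-Control) carry the genotype label Control, and cells at day 2 and day 4 with the genotype label Atg7 KO (d2-Atg7 KO and d4-Atg7 KO) are the other genotype. No knockout library of day 0 is among them. The stem cells had been kept on inactivated mouse embryonic fibroblasts with LIF, PD0325901 and CHIR99021. For the transition they were seeded on fibronectin in N2B27 medium with activin A, bFGF and serum replacement. Which part of Atg7 was removed, and from how many clones the knockout cells came, the sources used here do not say. The labels do not say that replicates were separate cultures, so p-values measure the spread between these libraries, which may be technical.

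Selective autophagy of mitochondria, or mitophagy, needs a link between the mitochondrion and the growing autophagosome. That link is a receptor whose LC3-interacting region binds proteins of the ATG8 family, which are anchored in the autophagosome membrane by a conjugation system that includes ATG7. BNIP3 and its homologue BNIP3L (also called NIX) sit in the outer mitochondrial membrane and are known as products of hypoxia-inducible genes; FUNDC1 is an outer-membrane receptor regulated by phosphorylation. FKBP8 is an outer-membrane immunophilin that also binds LC3. PHB2, an inner-membrane prohibitin, is exposed when the outer membrane ruptures. PINK1 is a kinase that builds up on damaged mitochondria and phosphorylates ubiquitin there. The messenger RNA levels given here do not measure mitophagy itself.

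Library totals lay between 14059237 and 23371546 counts, and no replicate pair agreed within counting noise (lowest chi-square per degree of freedom 3.20). The highest values were those of ESC replicate 3, at 31.8 against replicate 1 and 24.2 against replicate 2. ESC replicates 1 and 2 gave 5.86, so replicate 3 stood apart within its group. Levels are given as CPM (counts scaled to library size, with TMM factors), as mean ± SD with n = 3 libraries, and differences as log2 fold changes ± standard error (SE) from the quasi-likelihood test of edgeR, with p adjusted by Benjamini-Hochberg over all tested genes. A gene is said to have risen or fallen where the adjusted p was under 0.05. Atg7 was 17.6 ± 1.03 CPM in ESC, 13.6 ± 1.27 in d2-Control and 7.16 ± 0.349 in d2-Atg7 KO. At day 4 it was 19.5 ± 0.379 in control and 11.9 ± 1.28 in knockout. It therefore fell in the knockout by 0.92 ± 0.11 on the log2 scale at day 2 (adjusted p = 8.34e-06) and by 0.71 ± 0.11 at day 4 (adjusted p = 8.39e-05), with reads left in every knockout library. Hprt was 195 ± 11.2 CPM in ESC and between 1.78 ± 0.101 and 2.38 ± 0.485 CPM in the other groups, so the ESC libraries stood apart from the rest. E14TG2 is known as a line deficient in Hprt, so this level goes against the line name on the ESC libraries; whether they are of the same line as the others was not tested. The 12 fibroblast markers summed to 266 to 1972 CPM in ESC, 293 to 330 in d2-Control, 495 to 876 in d2-Atg7 KO, 109 to 117 in d4-Control and 163 to 209 in d4-Atg7 KO. Their sum was lowest in replicate 3 among the ESC libraries and highest in replicate 2 among the d2-Atg7 KO libraries. Values without this pair of libraries are called those of the 13 libraries. The ESC libraries kept there are those with more fibroblast marker RNA, so for steps from ESC these values do not lessen that difference. The 12 pluripotent cell markers were detected in every group, with sums from 6927 to 7105 CPM in ESC down to 3740 to 3999 in d4-Control. None of the fibroblast, pluripotent, extraembryonic endoderm or trophoblast markers tested was at 0 in all libraries of a group.

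At day 4, Atg7 knockout cells held far less Bnip3 mRNA than control cells and also less Bnip3l and Fundc1 mRNA, while Fkbp8 and Phb2 were slightly higher. Bnip3 was 10.1-fold lower, Fundc1 1.94-fold lower and Bnip3l 1.57-fold lower. Fkbp8 was 1.25-fold higher, Phb2 was 1.19-fold higher, and Pink1 did not pass the test. In that comparison 2 members rose and 3 fell, where 19.5% of all tested genes rose, 18.1% fell and 37.6% were called in either direction. The 3 libraries of one group did not overlap with those of the other for 5 of the 6 members, Pink1 being the exception, against 54.9% of all tested genes. The median size of the log2 difference was 0.49 over the members and 0.27 over all tested genes. In these bulk libraries, a smaller number of cells of some type and less RNA per cell cannot be told apart.

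**Figure D1:**
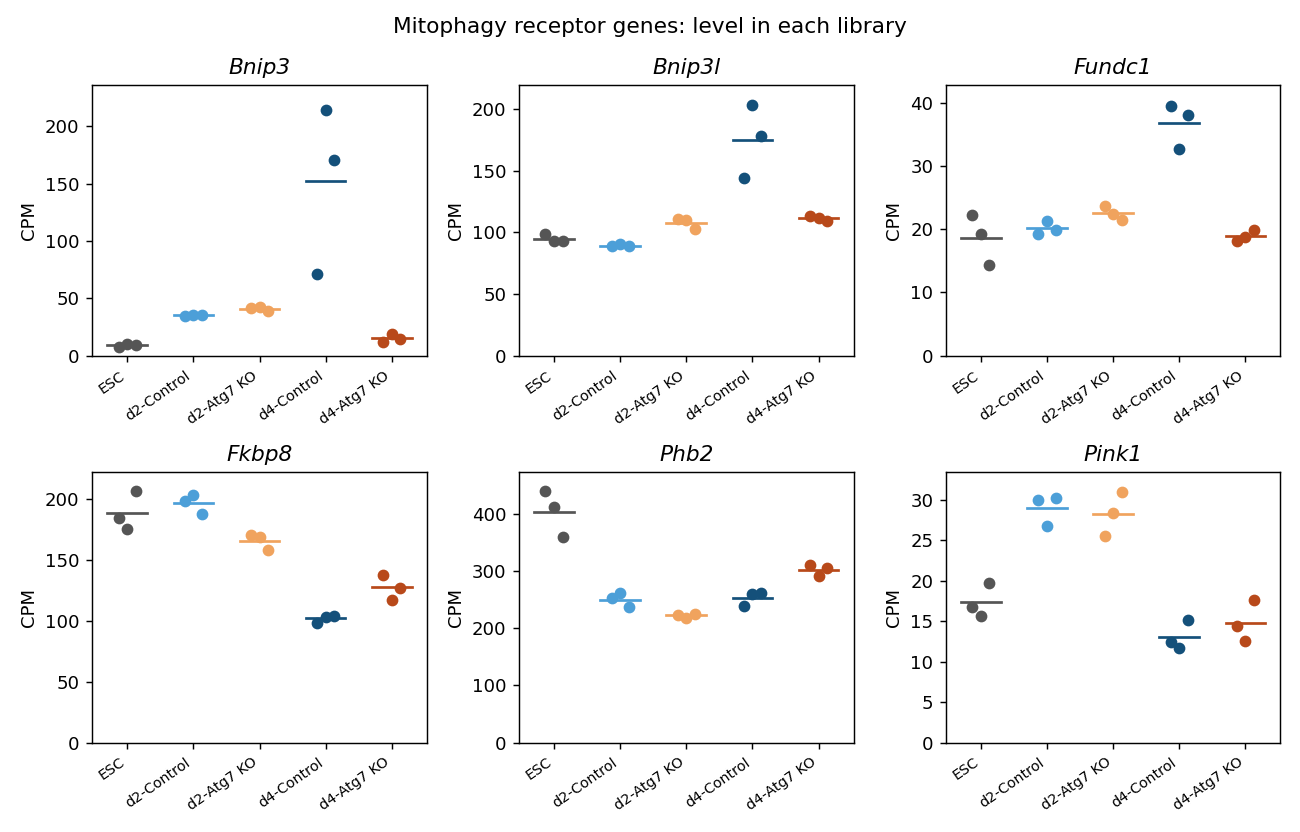
Level of each of the 6 genes in all 15 libraries, in CPM on a linear axis, by group. Points are libraries and bars are group means. Bnip3 reaches 214 CPM in d4-Control and stays at or below 18.6 CPM in d4-Atg7 KO, while Pink1 is highest in both day 2 groups.

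The position of the genes and the sequence before their start sites are given here because the largest difference lay in Bnip3, whose promoter is known to be bound by hypoxia-inducible factors. On GRCm38, with GENCODE gene models, Bnip3 lies on chromosome 7 from 138890836 to 138909519 on the minus strand, and Bnip3l on chromosome 14 from 66985239 to 67008877 on the minus strand. Fundc1 lies on chromosome X from 17556564 to 17572325 on the minus strand, and Fkbp8 on chromosome 8 from 70527724 to 70535328 on the plus strand. Phb2 lies on chromosome 6 from 124712336 to 124716950 on the plus strand, and Pink1 on chromosome 4 from 138313409 to 138326307 on the minus strand. RefSeq promoter windows (GRCm38.p6), which run from 250 bases before to 50 bases after the start site, were matched for 5 of the 6 members, all but Bnip3l.

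The Bnip3 window (chr7:138909457-138909756, minus strand) is printed beside that of Fkbp8 (chr8:70527493-70527792, plus strand), a member that moved the other way at day 4. Both are 5′ to 3′ along the gene. Capitals mark each match, on either strand, to ACGTG or GCGTG, the cores bound by hypoxia-inducible factors.
Bnip3: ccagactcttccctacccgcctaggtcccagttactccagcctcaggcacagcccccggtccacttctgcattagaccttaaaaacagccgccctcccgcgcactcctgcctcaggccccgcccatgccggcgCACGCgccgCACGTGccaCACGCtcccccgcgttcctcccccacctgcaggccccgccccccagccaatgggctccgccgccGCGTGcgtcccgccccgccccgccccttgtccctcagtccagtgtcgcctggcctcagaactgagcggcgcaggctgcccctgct
Fkbp8: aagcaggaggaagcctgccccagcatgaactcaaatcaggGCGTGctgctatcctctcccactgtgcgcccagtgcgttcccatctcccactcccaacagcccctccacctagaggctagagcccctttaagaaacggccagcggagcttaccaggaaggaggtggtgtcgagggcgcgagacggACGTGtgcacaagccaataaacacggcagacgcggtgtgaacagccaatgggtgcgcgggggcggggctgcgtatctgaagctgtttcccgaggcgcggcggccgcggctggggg

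The Bnip3 window held 4 separate places with such a core. One of them is the palindrome CACGTG, which reads ACGTG on both strands and begins 108 bases before the start site. The other places are GCGTG cores that begin 117, 99 and 35 bases before the start site. The Fkbp8 window held 2 places, that of Phb2 held 1 ACGTG and that of Pink1 held 1 GCGTG. Neither core was in the Fundc1 window. That window (chrX:17571958-17572257, minus strand) lies inside the gene, which begins at 17572325 on that strand. It thus does not hold the sequence before the outermost start of Fundc1, which was not searched. Over all 32851 RefSeq promoter windows of 300 bases, 43.8% held at least 1 such core, 19.6% held ACGTG, 32.4% held GCGTG and 7.15% held CACGTG. Windows with 4 or more separate places made up 2.44%, a cut equal to the count in the Bnip3 window, so this share is a description. These matches describe letters in the windows and are no measure of binding.

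Bnip3 changed most of the 6 genes. Its level was 7.66, 10.6 and 9.56 CPM in the ESC libraries and 34.6, 35.3 and 35.4 CPM in d2-Control. In d4-Control it was 71.0, 214 and 170 CPM, so all day 4 control libraries lay above all day 2 libraries but were widely spread. The d2-Atg7 KO libraries held 41.6, 42.1 and 38.9 CPM, just above their controls without overlap. The d4-Atg7 KO libraries held 12.4, 18.6 and 14.2 CPM, below every day 2 library and above every ESC library. The order of the group means was thus d4-Control, d2-Atg7 KO, d2-Control, d4-Atg7 KO and ESC, and no neighbours in that order overlapped.

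In control cells, Bnip3 rose by 1.92 ± 0.30 on the log2 scale from ESC to day 2 (adjusted p = 3.08e-05) and by a further 2.11 ± 0.26 from day 2 to day 4 (adjusted p = 2.33e-06). Over both steps the rise was 4.03 ± 0.31, or 16.4-fold (adjusted p = 4.87e-09). The steps that start from ESC stand beside the differing Hprt and fibroblast marker levels given above, whose part in them was not tested. In the 13 libraries, which keep the ESC libraries with more fibroblast marker RNA, the first step was 1.95. In knockout cells the change from day 2 to day 4 went the other way, and Bnip3 fell by 1.44 ± 0.28 (adjusted p = 0.000328). Against control, the knockout value at day 2 was 0.22 ± 0.26 (adjusted p = 0.532), though Bnip3 passed the test when the day 2 groups were fitted alone (0.23, adjusted p = 0.00369). At day 4 Bnip3 fell by 3.33 ± 0.29 (adjusted p = 4.55e-07). At day 4, Bnip3 was among the 22 genes with the lowest fold change of 15696. The knockout effect at day 4 differed from that at day 2 by -3.55 ± 0.38 (adjusted p = 5.57e-06). Comparisons that share the d4-Control libraries are not independent of each other. The exons of an antisense gene, Gm45507, share 504 bases with those of Bnip3, 22.2% of its exon length; this gene has no row in the count tables, and whether counting used strand, the sources used here do not say.

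Replicate 1 of d4-Control was the lowest of its group for Bnip3 and for 20 of 22 hypoxia-inducible genes tested, where 34.0% of all tested genes were lowest in that library. Egln3, a prolyl hydroxylase that acts on hypoxia-inducible factors, was 23.0, 66.1 and 53.1 CPM in d4-Control. Slc2a1, the glucose transporter GLUT1, was 712, 1535 and 1275 CPM in the same libraries. The summed level of the 22 genes was 3232, 5486 and 4753 CPM in d4-Control, 2093 to 2178 in d4-Atg7 KO, 2181 to 2206 in d2-Control, 1746 to 1931 in d2-Atg7 KO and 1796 to 2116 in ESC. The day 4 controls were thus the highest in every replicate. Without replicate 1 of d4-Control, Bnip3 in the knockout fell by 3.67, and without replicate 2 it fell by 3.00.

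Most of the hypoxia-inducible genes fell in the knockout at day 4, as Bnip3 did. In d4-Atg7 KO against d4-Control 16 of 22 fell, 3 rose and 3 did not pass, with a median of -0.91 on the log2 scale. Of all tested genes, 18.1% fell and 19.5% rose. The list was written with earlier results of these data known, so its counts are a description. P4ha1, a collagen prolyl hydroxylase, fell by 1.72 ± 0.14, from 246 ± 52.8 to 74.6 ± 6.10 CPM. Pgk1, a glycolytic kinase, fell by 1.59 ± 0.14, and Slc2a1 fell by 1.93 ± 0.18, from 1174 ± 421 to 308 ± 15.9 CPM. The 3 that rose were Hif1a (0.41 ± 0.09) and Epas1 (0.45 ± 0.07), which encode the oxygen-regulated factor subunits themselves, and Vegfa (0.80 ± 0.13), an angiogenic growth factor. At day 2, 5 of the 22 fell and 2 rose in the knockout (median -0.25), where 21.4% of all tested genes fell and 20.4% rose. In control cells from day 2 to day 4, 16 rose and 2 fell (median 0.79), where 33.9% of all tested genes rose and 34.6% fell. Pdk1, a kinase that restrains pyruvate oxidation, rose by 1.85 ± 0.11 in that step. Without replicate 1 of d4-Control the day 4 counts were again 16 fallen and 3 risen (median -1.06), and at day 2 they were 8 fallen and 2 risen. In the 13 libraries 16 fell and 3 rose at day 4, and 10 fell and 2 rose at day 2. Oxygen level was not measured in these data.

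**Figure D2:**
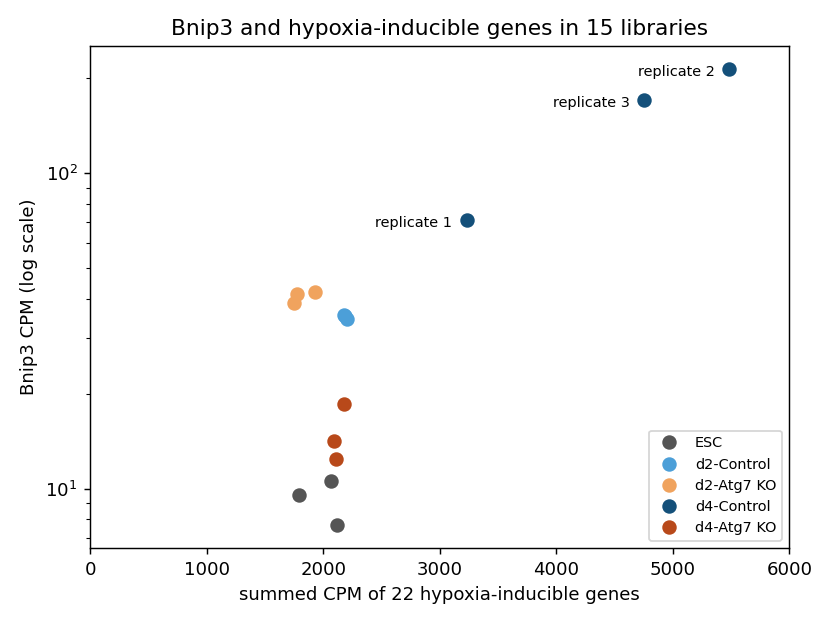
Level of Bnip3 in CPM (log axis) against the summed CPM of the 22 hypoxia-inducible genes (linear axis). Points are the 15 libraries, coloured by group. The d4-Control libraries lie apart at the upper right, with replicate 1 (71.0 CPM of Bnip3) the lowest of them.

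Bnip3l, the homologue of Bnip3, varied over a smaller range. It was 98.3, 93.0 and 93.3 CPM in ESC and 88.6, 90.4 and 88.5 CPM in d2-Control, which differed by -0.09 ± 0.09 on the log2 scale (adjusted p = 0.374). In d4-Control it was 144, 203 and 178 CPM, all above every library of the other groups, and it rose from day 2 by 0.97 ± 0.09 (adjusted p = 5.18e-08). In the knockout it was 110, 110 and 102 CPM at day 2 and 113, 111 and 109 CPM at day 4, with a change of 0.05 ± 0.09 between the days (adjusted p = 0.635). The control libraries thus climbed between the days and the knockout libraries overlapped. At day 2 Bnip3l rose in the knockout by 0.27 ± 0.09 (adjusted p = 0.0193), a call that was lost when any of 4 of the 6 libraries was left out (highest adjusted p = 0.0638). At day 4 it fell by 0.65 ± 0.09 (adjusted p = 2.64e-05). The knockout effects of the days differed by -0.92 ± 0.12 (adjusted p = 3.26e-05).

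Per kilobase of exon, Bnip3 stood at 0.167 ± 0.0311 of the level of Bnip3l in ESC and at 0.671 ± 0.00933 in d2-Control. In d4-Control the ratio was 0.840, 1.80 and 1.63 in the 3 libraries, so Bnip3 was above its homologue in replicates 2 and 3 and below it in replicate 1. The ratio was 0.647 ± 0.00484 in d2-Atg7 KO and 0.231 ± 0.0497 in d4-Atg7 KO. At day 4 the knockout libraries, from 0.186 to 0.284, did not overlap with the controls.

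Fundc1 was low in ESC, at 22.2, 19.3 and 14.4 CPM, and in d2-Control, at 19.3, 21.3 and 19.9 CPM. It was 39.5, 32.6 and 38.1 CPM in d4-Control, the only group clear of all others, and rose from day 2 by 0.87 ± 0.12 (adjusted p = 7.56e-06). The d2-Atg7 KO libraries held 23.7, 22.5 and 21.5 CPM and the d4-Atg7 KO libraries 18.2, 18.8 and 19.8 CPM. Control at day 2, knockout at day 4 and ESC overlapped with their neighbours in the order of means. Against control the knockout value was 0.16 ± 0.12 at day 2 (adjusted p = 0.298), and at day 4 Fundc1 fell by 0.96 ± 0.12 (adjusted p = 1.75e-05). The day 4 effect differed from that of day 2 by -1.12 ± 0.17 on the log2 scale (adjusted p = 0.000115). Fundc1 is X-linked, and the 617 tested genes of chromosome X had a median change of 0.21 from day 2 to day 4 in control cells and of -0.11 in the knockout at day 4, both smaller than that of Fundc1. From ESC to day 2 the chromosome X median was 0.39 and Fundc1 changed by 0.12 ± 0.12 (adjusted p = 0.418), a value that was -0.04 without replicate 3 of ESC.

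From day 2 to day 4 in control cells, Fkbp8 fell while Bnip3, Bnip3l and Fundc1 rose. It was 184, 175 and 206 CPM in ESC and 198, 204 and 187 CPM in d2-Control, which overlapped (0.06 ± 0.07, adjusted p = 0.456). In d4-Control it was 98.4, 103 and 104 CPM, the lowest of the 5 groups, and it fell from day 2 by 0.95 ± 0.07 (adjusted p = 4.93e-09). In the knockout it was 170.1, 169 and 158 CPM at day 2 and 138, 117 and 127 CPM at day 4, a fall by 0.38 ± 0.07 (adjusted p = 0.000146). Knockout libraries thus lay below control at day 2 and above control at day 4, without overlap at either day. Fkbp8 fell in the knockout by 0.25 ± 0.07 at day 2 (adjusted p = 0.00817) and rose by 0.32 ± 0.07 at day 4 (adjusted p = 0.0017). The difference between the days was 0.57 ± 0.10 (adjusted p = 0.000292). The opposite-strand neighbour Kxd1 shares 224 exon bases, 4.95% of the exon length of Fkbp8.

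Phb2, the inner-membrane receptor, had the highest level per length of the members in ESC. In CPM it was 440, 411 and 359 there and 252, 261 and 236 CPM in d2-Control, a fall by 0.69 ± 0.07 (adjusted p = 1.04e-07), or by 0.77 in the 13 libraries. In d4-Control it was 238, 260.0 and 261 CPM, overlapping with day 2 (0.02 ± 0.07, adjusted p = 0.801). In the knockout it was 223, 218 and 225 CPM at day 2 and 310.4, 291 and 305 CPM at day 4, a rise by 0.44 ± 0.07 (adjusted p = 2.15e-05). Phb2 thus climbed between the days in the knockout libraries, while the control libraries of the days overlapped. In the knockout Phb2 fell by 0.17 ± 0.07 at day 2, close to the threshold (adjusted p = 0.0497), and the call was lost in 5 of 6 fits with a library left out (highest adjusted p = 0.171). At day 4 it rose by 0.26 ± 0.07 (adjusted p = 0.00607), and the days differed by 0.42 ± 0.09 (adjusted p = 0.0022). With the level of 3 collagen genes as a covariate, the day 4 value was 0.12 (adjusted p = 0.143). Col1a1, among these genes, was 12.1 ± 0.999 CPM in d4-Control and 38.2 ± 3.42 in d4-Atg7 KO. The covariate thus differed between the genotypes, and this fit cannot tell the parts of both apart. The 779 tested genes of its chromosome, 6, had a median change of 0.39 from day 2 to day 4 in control and 0.24 in knockout cells; the part of this shift in the values of Phb2 was not tested.

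Pink1, the kinase of damaged mitochondria, was higher at day 2 than at day 4 in both genotypes. It was 16.7, 15.6 and 19.7 CPM in ESC and 30.0, 26.7 and 30.2 CPM in d2-Control, a rise by 0.74 ± 0.13 (adjusted p = 8.98e-05), or by 0.84 in the 13 libraries. In d4-Control it was 12.4, 11.7 and 15.1 CPM, all below day 2, a fall by 1.14 ± 0.13 (adjusted p = 1.06e-06). The knockout libraries held 25.5, 28.4 and 30.9 CPM at day 2 and 14.3, 12.5 and 17.6 CPM at day 4, a fall by 0.94 ± 0.13 (adjusted p = 1.1e-05). Both genotypes thus showed the same order of days, and their libraries overlapped at each day. The knockout value was -0.03 ± 0.12 at day 2 (adjusted p = 0.851) and 0.17 ± 0.14 at day 4 (adjusted p = 0.351). The difference between the days was 0.21 ± 0.19 (adjusted p = 0.417). From ESC to d4-Control, Pink1 fell by 0.40 ± 0.14 (adjusted p = 0.0146), a call that was lost when replicate 3 of ESC or replicate 1 or 2 of d4-Control was left out (highest adjusted p = 0.0677).

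**Figure D3:**
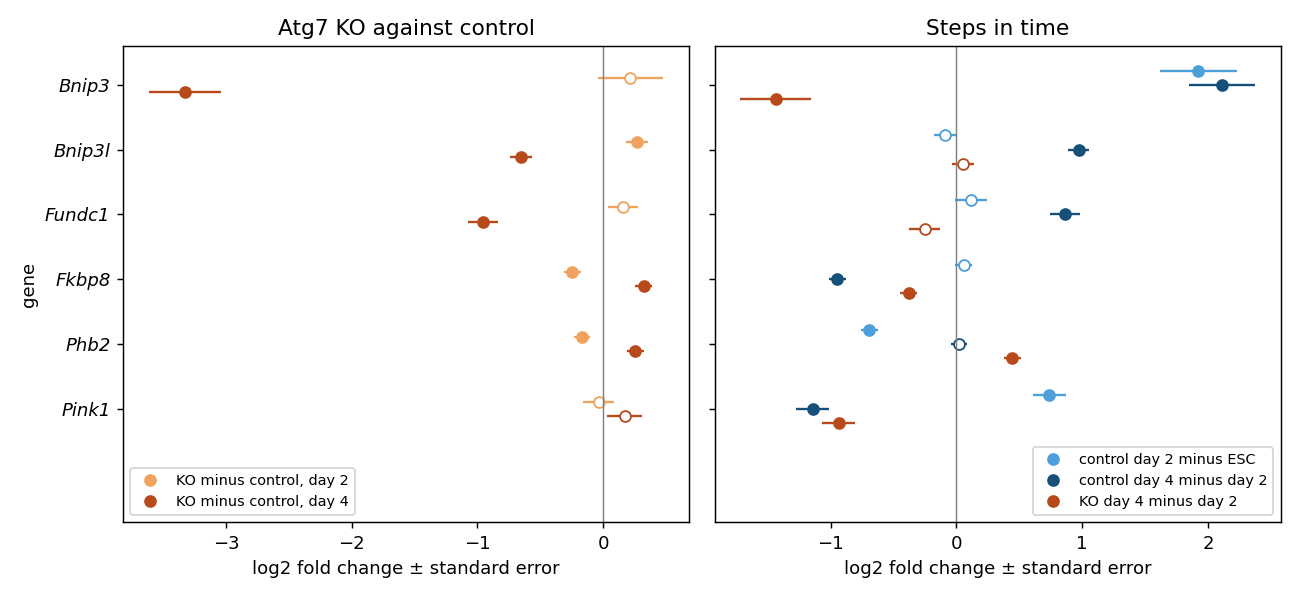
Log2 fold change ± SE of the 6 genes, at left for Atg7 KO against control at day 2 and day 4, at right for the steps in time in control and knockout cells; filled points passed the adjusted p threshold. Bnip3 at day 4 (-3.33) lies farthest from 0 at left, and Bnip3 changes in opposite directions in control (2.11) and knockout (-1.44) between the days.

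Read across the members, the transition in control cells went in opposite directions for different receptors. From ESC to day 2, 2 members rose (Bnip3 and Pink1) and 1 fell (Phb2), where 35.6% of all tested genes rose, 34.9% fell and 70.5% were called. From day 2 to day 4, 3 rose (Bnip3, Bnip3l and Fundc1) and 2 fell (Fkbp8 and Pink1), against 33.9% and 34.6% of all genes and 68.4% in either direction. Over the whole course 3 rose and 3 fell, against 36.2% and 35.6% and 71.7% in either direction. With backgrounds this high, the counts say little about the members, so sizes are given as well. The members were chosen with earlier results of these data known, so both are a description. The median size of the change was 0.40 over the members and 0.58 over all genes from ESC to day 2, 0.96 and 0.55 from day 2 to day 4, and 0.89 and 0.62 over the whole course. It was thus smaller over the members than over all genes in the first step and larger in the second.

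In the knockout at day 2, 1 member rose (Bnip3l) and 2 fell (Fkbp8 and Phb2), where 20.4% of all tested genes rose, 21.4% fell and 41.8% were called. The groups did not overlap for 5 of 6 members, against 61.3% of all tested genes. The number of members called was 1 or 2 when a library was left out. The median size of the effect at day 2 was 0.19 over the members, below the 0.29 over all genes. Between the knockout days, 1 member rose and 3 fell, against 31.2% and 32.0% of all genes and 63.2% in either direction, with a median size of 0.41 over the members and 0.46 over all genes. The knockout effect differed between the days for 5 of 6 members, 2 higher and 3 lower at day 4, where 18.6% of all genes were higher, 17.6% were lower and 36.1% were called.

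At day 4, trophoblast and pluripotent cell markers also differed between the genotypes. Of all tested genes, 19.5% rose and 18.1% fell in the knockout at that day. Of 12 pluripotent cell markers 7 rose, and their sum was 3740 to 3999 CPM in control and 4405 to 4583 in knockout. Of 7 trophoblast markers tested 4 fell, while Cdx2, Elf5 and Plac1 did not pass the filter. Sums over all 10 listed trophoblast markers were 521 to 679 CPM in control and 318 to 404 in knockout. The largest parts were Krt8 (330 ± 50.5 CPM in control and 199.5 ± 26.4 in knockout) and Krt18 (221 ± 33.5 and 109 ± 17.8). Of 12 extraembryonic endoderm markers 3 rose, with sums of 1104 to 1529 and 1594 to 1856 CPM. Of 12 fibroblast markers 1 rose, with sums of 109 to 117 CPM in control and 163 to 209 in knockout. The libraries of the genotypes did not overlap in any of these 4 sums. Taken singly, 54.9% of all tested genes did not overlap either. Whether the numbers of such cells differed, and their part in the values of the members, was not tested.

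Levels of different genes were compared per kilobase of exon. Phb2 was the highest member in ESC, at 108.5 ± 10.97 CPM per kilobase, followed without overlap by Fkbp8 at 41.7 ± 3.52 and Bnip3l at 24.6 ± 0.768. Bnip3 was the lowest, at 4.09 ± 0.650. In d4-Control Phb2 (68.1 ± 3.48), Bnip3 (67.1 ± 32.4) and Bnip3l (45.3 ± 7.71) overlapped with their neighbours at the top, above Fkbp8 at 22.5 ± 0.672. Bnip3 had therefore moved from the last place to the leading ones. In d4-Atg7 KO Phb2 again led without overlap at 81.3 ± 2.65, Bnip3l (28.9 ± 0.513) and Fkbp8 (28.1 ± 2.28) followed, and Fundc1, Bnip3 and Pink1 lay between 5.54 ± 0.955 and 8.05 ± 0.348. Pink1 was the lowest member in both day 4 groups, though in the knockout it overlapped with Bnip3.

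**Figure D4:**
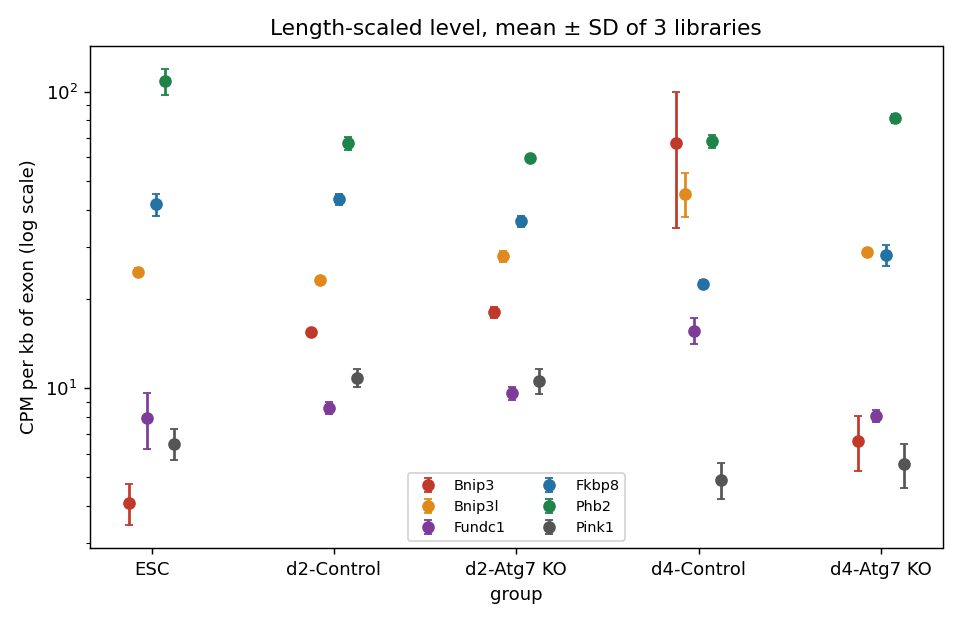
Level of each member per kilobase of exon, in CPM per kilobase on a log axis, as mean ± SD of 3 libraries for each of the 5 groups. Bnip3 is lowest in ESC (4.09) and among the highest in d4-Control (67.1), while Phb2 stays at or above 59.7 in every group.

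The genes whose levels ran most like each member over the 15 libraries were found by the root mean square difference of log2 CPM, each gene centred on its mean, among 9590 genes of at least 10 CPM on average. For Bnip3 they were Slc16a3, a lactate transporter (0.50), Ndrg1 (0.59) and P4ha1 (0.59). Slc16a3 averaged 131 CPM in d4-Control and 9.46 in d4-Atg7 KO. For Bnip3l they were Sqstm1, the autophagy receptor p62 (0.12), the general transcription factor gene Gtf2b (0.13) and Trak2, an adaptor of mitochondrial transport (0.14). For Fundc1 they were Rp2, which is X-linked as well (0.15), Sowahc (0.18) and B3gnt2 (0.19). Fkbp8 ran closest to Psap, the precursor of lysosomal saposins (0.08), and to Lrwd1 and Pigs (0.08 and 0.09). Phb2 ran closest to Adrm1, a proteasome ubiquitin receptor (0.07), and to Nhp2 and Ipo9 (0.07 and 0.08). Pink1 ran closest to Ppox, an enzyme of haem synthesis in mitochondria (0.15), Cox18 (0.15) and the mitochondrial dehydrogenase gene Aldh2 (0.16). Among the members themselves, Bnip3l and Fundc1 were the closest pair (0.23) and Bnip3 and Fkbp8 the farthest (1.61). All of these libraries share the same groups, so such likeness is a description.

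The genes of the PINK1 pathway did not move in 1 direction in the knockout at day 4, when 5 of 27 rose and 5 fell (median -0.10). The shares over all tested genes were 19.5% risen and 18.1% fallen. Sqstm1 fell by 0.48 ± 0.05, from 299 ± 11.3 to 214 ± 6.54 CPM, and Rhot1, a GTPase of the outer membrane that anchors mitochondria to motors, fell by 0.42 ± 0.06. Ubb and Tbk1, the kinase of autophagy receptors, also fell. Tomm40, the pore of the import complex through which PINK1 passes, rose by 0.61 ± 0.10, and the ubiquitin ligase gene March5 rose by 0.49 ± 0.07. Calcoco2, an autophagy receptor known as NDP52, rose by 0.49 ± 0.08. At day 2, 5 rose and 10 fell, where 20.4% of all tested genes rose and 21.4% fell. From ESC to d4-Control 8 rose and 14 fell, where 36.2% of all tested genes rose and 35.6% fell.

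In the knockout at day 4, 19.5% of all tested genes rose and 18.1% fell. Of 18 further mitochondrial receptors and regulators of the members, 3 rose and 3 fell there. Those that rose were Src, a kinase reported to phosphorylate FUNDC1 (0.65 ± 0.09), the ubiquitin ligase gene Huwe1 (0.64 ± 0.07) and Ambra1, an autophagy scaffold (0.37 ± 0.07). Mcl1, an outer-membrane survival protein, fell by 0.71 ± 0.07, and Csnk2a1, a subunit of casein kinase 2, fell by 0.32 ± 0.04. Prkaa1, a catalytic subunit of AMP-activated kinase, fell by 0.35 ± 0.06. At day 2, 2 of the 18 rose and 2 fell, where 20.4% of all tested genes rose and 21.4% fell. Of the 5 genes of the ATG8 family to which the receptors bind, Gabarapl2 rose by 0.25 ± 0.07 at day 4, and Gabarapl1 (-0.50 ± 0.08) and Map1lc3b (-0.24 ± 0.07) fell. At day 2, 2 of the 5 rose and 2 fell.

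The genes around the inner-membrane receptor differed among themselves. Phb, which encodes the partner of PHB2 in the prohibitin ring, fell by 0.32 ± 0.08 in the knockout at day 4, from 149 ± 3.29 to 120.0 ± 2.14 CPM, while Phb2 rose. Of the 9 prohibitin partners and inner-membrane proteases, 4 rose and 2 fell, where 19.5% of all tested genes rose and 18.1% fell. Spg7, a protease subunit, rose by 0.56 ± 0.09, and Yme1l1, another protease, fell by 0.33 ± 0.06. Of 10 fission and fusion genes, Mfn2 and Mief1 rose by 0.27 ± 0.09 and 0.25 ± 0.06, and Mff fell by 0.27 ± 0.05.

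Among 21 genes of mitochondrial mass and biogenesis tested, 6 rose and 3 fell in the knockout at day 4. In that comparison 19.5% of all tested genes rose and 18.1% fell. Pprc1 and Ppargc1b, coactivators of mitochondrial biogenesis, rose by 0.87 ± 0.08 and 0.77 ± 0.14. Tfam, the packaging factor of mitochondrial DNA, fell by 0.21 ± 0.05. In control cells from ESC to day 4, 15 of the 21 fell and 1 rose, with a median of -0.54. Of all tested genes, 35.6% fell and 36.2% rose. Over that course, Cs, which encodes citrate synthase, fell by 0.70 ± 0.05 and Sdha, a subunit of complex II, fell by 0.65 ± 0.05. The differing Hprt and fibroblast marker levels of ESC stand beside this course, and their part in it was not tested. The mitochondrial content of the cells was not measured.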

How the data were processed

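Per the labels' protocols, polyA RNA was isolated with TRIzol from 15 samples in 5 groups. The authors deposited 1 table of raw counts per gene for each sample. The submitters' processing notes name STAR, featureCounts, StringTie and DESeq2 and the builds mm10 and GRCm38; the sources used here give no versions, gene models or strand setting. Whole-number counts were tested with edgeR 4.0.16 (limma 3.58.1, R 4.3.3): filterByExpr (minimum count 10, minimum total 15) kept 15696 of 24982 genes, TMM scaling was applied, and 1 quasi-likelihood fit over all 15 libraries had a mean per group, with Benjamini-Hochberg adjustment over all tested genes and a threshold of 0.05. The pipeline was tested on simulated data. As alternatives, scaling by RLE or upper quartile, leaving out the filter, requiring 10 CPM in 3 libraries, fitting the compared groups alone, DESeq2 1.42.0, a replicate block, a collagen covariate (Col1a1, Col1a2 and Col3a1), 13 libraries, and leaving out each library were tried. The counts of hypoxia-inducible genes without single libraries were added after seeing the data. Levels per length used the union of exons of GENCODE gene models on GRCm38.

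The members and gene lists were chosen with earlier results of these data known. Named were the 6 members, Atg7 and the 3 genes most like each member (no predicted genes). Genes of the lists could be named if among the 3 risen or 3 fallen with the smallest p. Where a count was 5 or fewer, any of its genes could be named. Not every gene open to naming is named. Hprt, and the values of Ndrg1, Egln3 and Slc2a1 by library, were chosen after their values were seen. 1 gene that enters the counts of the PINK1 pathway list is not reported here. Ppargc1a, Cdx2, Elf5 and Plac1 did not pass the filter, and Ppptc7 was not analysed here. Fold changes were in log2, and prior count 2 was used for the likeness of genes.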

Additional observations from a re-analysis of the deposited data

Results flagged for a closer look

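The effect of the knockout differed between day 4 and day 2 for 5 of the 6 genes in a test of the difference itself (edgeR's quasi-likelihood test, adjusted over all tested genes). Of all tested genes, 36.1% were called in that test. For Bnip3 the difference was -3.55 ± 0.38 on the log2 scale, with an effect of 0.22 at day 2 and of -3.33 at day 4. The day 2 effect did not pass in the fit of all libraries and passed with only the day 2 groups fitted (0.23, adjusted p = 0.00369). It was -0.92 ± 0.12 for Bnip3l, whose effect was 0.27 at day 2 and -0.65 at day 4. It was -1.12 ± 0.17 for Fundc1, from 0.16, which did not pass, to -0.96. Fkbp8 and Phb2 differed in the other direction. The difference was 0.57 ± 0.10 for Fkbp8, from -0.25 to 0.32, and 0.42 ± 0.09 for Phb2, from -0.17 to 0.26. With any 1 of 12 libraries left out, all 5 differences stayed past the threshold, with Bnip3 between -3.89 and -3.22. In the control libraries at day 4, replicate 1 was far from the others for Bnip3 (71.0 against 170 and 214 CPM), and groups of 3 were not tested for outliers.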

How the results depend on the processing

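Of 378 values under other settings 354 kept their direction and side of the threshold, and of 288 values with a library left out 271 did. Under other settings, 13 values lost their call, 5 gained a call and 6 turned direction. With a library left out, 12 lost their call and 5 turned direction. Not all lost and gained calls are named here. Directions turned only for values that did not pass the test: Phb2 from day 2 to day 4 in control was -0.0054 with no filter. With the collagen covariate, Fkbp8 from ESC to day 2 was -0.038, Fundc1 in the knockout at day 2 was -0.085, Pink1 there was 0.026 and Fundc1 between the knockout days was 0.19. Fundc1 from ESC to day 2 was -0.039 in the 13 libraries and from -0.039 to 0.26 with a library left out; the range was -0.024 to 0.060 for Phb2 from day 2 to day 4 and -0.10 to 0.034 for Pink1 in the knockout at day 2. The cause was not tested. The collagen covariate lowered the genes called from ESC to day 4 from 11257 to 7113. Collagen levels differed between the groups, so fits with this covariate cannot tell its part from that of the groups. The members called in the knockout at day 2 were 3 in all libraries and 1 to 2 with a library left out (1 without d2-Control replicate 1 or d2-Atg7 KO replicate 1 or 2); Phb2 there also missed the threshold with RLE scaling (adjusted p = 0.0571) and DESeq2 (adjusted p = 0.0542). With only the groups of day 2 fitted, Bnip3 rose by 0.23 in the knockout (adjusted p = 0.00369). Pink1 from ESC to day 4 missed it with upper quartile scaling (adjusted p = 0.0533) and in the 13 libraries (adjusted p = 0.0613). Same-numbered libraries did not deviate together (correlations from -0.0504 to 0.0572); every library correlated best with its own number only from ESC to day 2. With a replicate block the genes called in the knockout were 6393 at day 2 and 5759 at day 4 (6556 and 5903 without), and the block ended 1 call of a member, Phb2 at day 2 (-0.17, adjusted p = 0.0619).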
